A study of Mus musculus with 23 samples.

Results

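The 10 genes described here encode enzymes, and core partners of enzymes, that write or erase marks on lysine 27 of histone H3. They were chosen by name and function: Ezh1, Ezh2, Eed, Suz12 and Jarid2 of Polycomb repressive complex 2 (PRC2), Rnf2 of Polycomb repressive complex 1 (PRC1), the demethylase genes Kdm6a and Kdm6b, and the acetyltransferase genes Crebbp and Ep300. They are 10 of 21938 protein-coding genes on the assembled chromosomes. The measurement was chromatin immunoprecipitation with sequencing (ChIP-seq) of H3K27ac and H3K27me3 in sorted cells of the mouse embryonic cerebral cortex.

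All cells came from one transgenic strain, Tg(Ebf2-EGFP)FB58Gsat, in which EGFP is driven by Ebf2 regulatory sequence, and were separated by EGFP fluorescence. The 4 cell groups were Ebf2-EGFP- cells, taken at E11.5 (embryonic day) only and described by the study as mostly neural stem and progenitor cells, and Ebf2-EGFP+ cells of E11.5, of E13.5 and of E15.5. The study describes the Ebf2-EGFP+ cells as preplate neurons at E11.5 and mostly Cajal-Retzius cells by E15.5, so stage and the mix of neurons in the gate cannot be told apart. One peak list was deposited for each mark in each cell group, 8 lists from 15 ChIP samples, and 8 input samples came from the same 4 cell groups.

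PRC2 places methyl groups on H3K27 through its catalytic subunit, EZH2 or EZH1, held by EED and SUZ12, and trimethylated H3K27 is found at silenced developmental genes. PRC1 can bind that mark and ubiquitinates histone H2A. KDM6A (UTX) and KDM6B (JMJD3) remove methyl groups from H3K27, and CBP and p300 acetylate the same residue, so that one lysine cannot carry both marks at once. In the developing cortex EZH2 is known from dividing progenitors, while EZH1 is the catalytic subunit more typical of non-dividing cells. The lists report where the 2 marks lay on the genes of these enzymes and not how much enzyme the cells held.

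The lists differed in length, from 1386 peaks for H3K27ac in Ebf2-EGFP- cells, the one ChIP group with a single library, to 102881 for H3K27ac in E13.5 Ebf2-EGFP+ cells. The H3K27me3 lists held 48963 peaks in Ebf2-EGFP- cells and 6387 (E11.5), 6721 (E13.5) and 1438 (E15.5) in Ebf2-EGFP+ cells. The score of every peak was 0 in each list, so height and depth are unknown, and with 1 list for each group every difference is described without a test. Several lists marked genes that their label would not lead one to look for. The H3K27me3 list of Ebf2-EGFP- cells had a peak within 5 kb of the start site of 8 of 15 housekeeping genes (53.3%), close to the 48.2% of all genes. The H3K27ac lists of Ebf2-EGFP+ cells had one, by rising age, at 9, 17 and 3 of 20 transcription factor genes of non-neural tissues. That was 45%, 85% and 15%, and for 39 Hox genes it was 15, 38 and 13 (38.5%, 97.4% and 33.3%). Over all genes the shares were 49.9%, 60.9% and 52.3%, so both sets lay above them only at E13.5. For the 15 housekeeping genes the H3K27ac counts were 13, 9 and 14 (86.7%, 60% and 93.3%). The other marker lists gave, in the 3 H3K27ac lists of Ebf2-EGFP+ cells by rising age, 8, 9 and 7 of 9 Cajal-Retzius genes, 5, 4 and 5 of 6 neuronal genes, 5, 7 and 4 of 7 progenitor genes, and 5, 7 and 4 of 9 genes of other cell types. The H3K27ac list of Ebf2-EGFP- cells marked 3 of 9 Cajal-Retzius, 0 of 6 neuronal, 0 of 7 progenitor and 1 of 9 other genes. This was so although the study describes these cells as mostly progenitors. Their H3K27me3 list marked 7 of 9, 4 of 6, 5 of 7 and 7 of 9 of the same sets. The part of all these calls in the results below was not tested.

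Within 5 kb of the annotated transcription start site (TSS), the 10 genes carried H3K27ac in nearly all lists of Ebf2-EGFP+ cells and H3K27me3 almost only in the list of Ebf2-EGFP- cells. In Ebf2-EGFP+ cells 9 of 10 had an H3K27ac peak at E11.5, against 49.9% of all protein-coding genes. At E13.5 it was 10 of 10, against 60.9%, and at E15.5 it was 9 of 10, against 52.3%. Every gene but Ezh1 was marked at all 3 stages, 9 of 10, where 33.1% of protein-coding genes were. In Ebf2-EGFP- cells the short H3K27ac list marked 3 of 10, Ezh2, Crebbp and Ep300, against 4.17%.

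H3K27me3 was found near the TSS of 8 of the 10 genes in Ebf2-EGFP- cells, all but Eed and Rnf2, where 48.2% of protein-coding genes had a peak. In Ebf2-EGFP+ cells it was found at 0 of 10 genes at E11.5 (4.92% of all genes), at 1 of 10 at E13.5 (9.31%) and at 0 of 10 at E15.5 (1.06%). The single gene was Crebbp. By rising age the same 3 lists marked 0, 24 and 7 of the 39 Hox genes and 0, 9 and 1 of the 20 non-neural factor genes. The H3K27me3 list of Ebf2-EGFP- cells marked 28 and 17 of them. A count of 0 of 10 in the E11.5 and E15.5 lists therefore does not show that the mark was absent. From the Ebf2-EGFP- list to the Ebf2-EGFP+ lists the share of all genes fell too, and whether the 10 genes differ from other genes in this was not tested. These counts move with list length. When each list was cut to its widest peaks, 1386 for H3K27ac and 1438 for H3K27me3, the H3K27me3 count of Ebf2-EGFP- cells fell from 8 to 0 genes while that of E13.5 Ebf2-EGFP+ cells stayed at 1, so the order turned, and H3K27ac at all 3 stages went from 9 genes to 1.

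**Figure D1:**
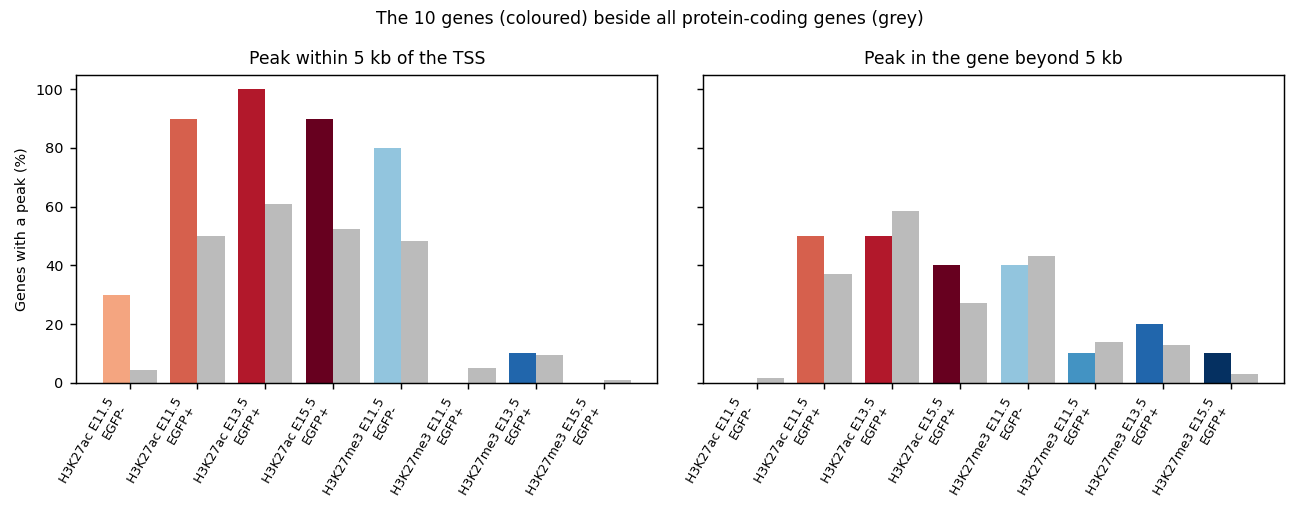
Share of genes with a peak, in percent, for each of the 8 lists, within 5 kb of the TSS (left) and in the gene beyond 5 kb (right). Coloured bars are the 10 genes and grey bars are all protein-coding genes (on the right, those longer than 5 kb); H3K27ac at the TSS reached 9, 10 and 9 of 10 genes in Ebf2-EGFP+ cells, whereas in the gene bodies the coloured and grey bars lay closer together.

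Both marks lay within 5 kb of the same TSS for 3 of 10 genes in Ebf2-EGFP- cells, Ezh2, Crebbp and Ep300, where 3.42% of protein-coding genes had both. The corresponding counts in Ebf2-EGFP+ cells were 0 of 10 at E11.5 (3.56%), 1 of 10 at E13.5, Crebbp (8.39%), and 0 of 10 at E15.5 (0.752%). In each of these 4 cases the H3K27ac and H3K27me3 peaks shared bases. Overlapping peaks of both marks were thus present at 3 of 10 genes in Ebf2-EGFP- cells against 2.58% of all genes, and in Ebf2-EGFP+ cells at 0 of 10 at E11.5 (1.84%), 1 of 10 at E13.5 (4.98%) and 0 of 10 at E15.5 (0.387%). A list made from many cells does not show whether both marks sat in the same cell.

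**Figure D2:**
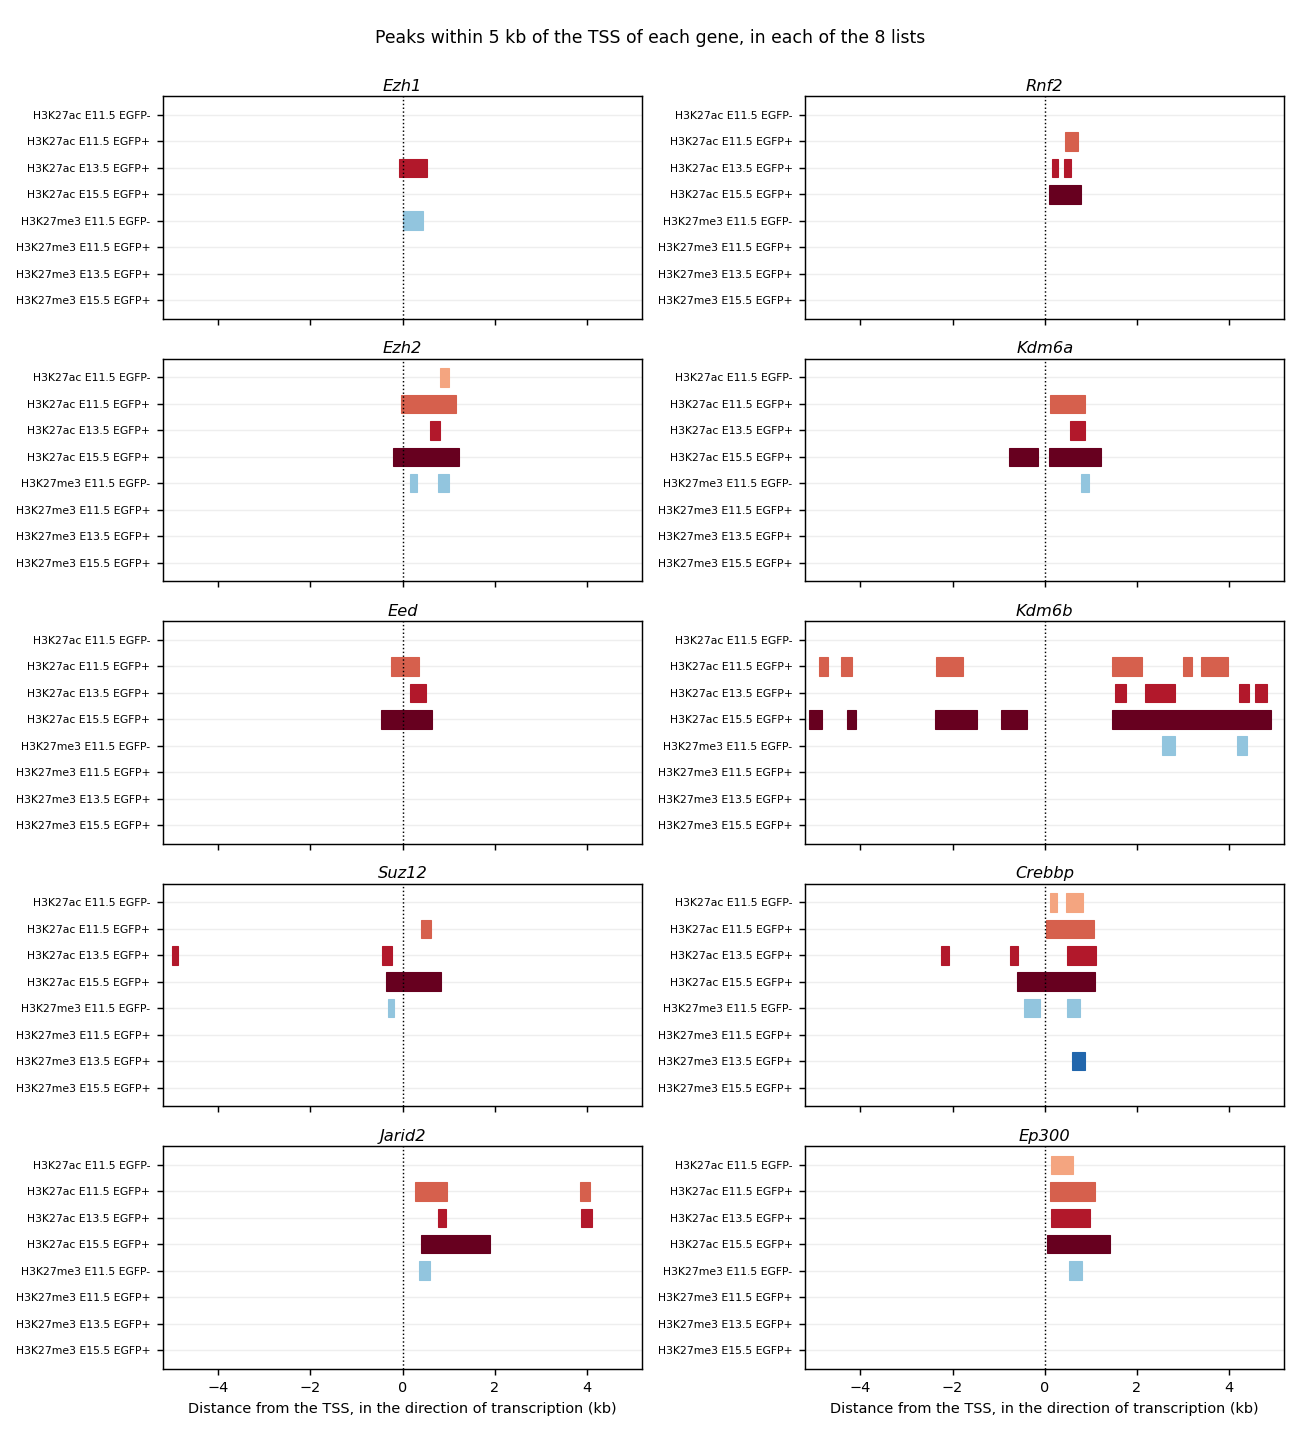
Peaks within 5 kb of the TSS of each of the 10 genes, drawn to scale by distance from the TSS in kb, with 1 row for each list (H3K27ac in reds, H3K27me3 in blues; EGFP+ and EGFP- stand for Ebf2-EGFP+ and Ebf2-EGFP- cells). Ezh2, Eed and Ep300 had 1 H3K27ac peak in each Ebf2-EGFP+ list, Kdm6b had 4 to 6, Ezh1 had H3K27ac only at E13.5, and Crebbp alone had H3K27me3 in an Ebf2-EGFP+ list.

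Ezh1 and Ezh2, the alternative catalytic subunits of PRC2, had different patterns. Ezh2 (chr6:47530139-47595341, minus strand) had H3K27ac in all 4 H3K27ac lists. The peak spanned 1187 bp across the TSS in E11.5 Ebf2-EGFP+ cells, from 34 bp before it to 1152 bp after it. At E13.5 it was 232 bp, from 585 to 816 bp after the TSS, and at E15.5 it was 1439 bp, from 215 bp before the TSS to 1223 bp after it. The E13.5 peak lay inside the intervals of the other stages, and the E11.5 and E15.5 peaks reached the TSS itself.

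Ezh1 (chr11:101191115-101226463, minus strand) had an H3K27ac peak near the TSS in 1 of 4 lists, at E13.5, where it was 602 bp wide and ran from 80 bp before the TSS to 521 bp after it. It was wider there than the E13.5 peaks of Ezh2, Eed, Suz12, Jarid2, Rnf2 and Kdm6a. This single call came from the longest list, which also marked 17 of the 20 non-neural factor genes. The H3K27ac peak nearest to the Ezh1 TSS lay 12009 bp downstream, in an intron, in E11.5 Ebf2-EGFP+ cells, 27.3 kb upstream in E15.5 cells and 383 kb away in Ebf2-EGFP- cells. That intronic peak was 142 bp wide, and it counted as a TSS peak when any annotated transcript start of Ezh1 was used. Ezh1 was thus the one member without H3K27ac within 5 kb of its TSS at E11.5 and E15.5 in Ebf2-EGFP+ cells, where the other 9 all had it.

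H3K27me3 of Ebf2-EGFP- cells lay at both genes. On Ezh1 it was a single peak of 446 bp, from 2 to 447 bp after the TSS, the widest such peak among the 10 genes, and it lay wholly within the interval that carried H3K27ac at E13.5. Ezh2 had peaks of 160 and 233 bp, at 154 to 313 bp and at 775 to 1007 bp. The second overlapped the 191-bp H3K27ac peak of the same cells, at 818 to 1008 bp. None of the 3 H3K27me3 lists of Ebf2-EGFP+ cells had a peak within 5 kb of either TSS, and for Ezh1 the nearest were 62.2 kb (E11.5), 43.0 kb (E13.5) and 36.4 kb (E15.5) away.

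The sequences just before these start sites are shown because the E13.5 H3K27ac peak of Ezh1 and the E11.5 and E15.5 H3K27ac peaks of Ezh2 reached into them, and because the same paralogue pair differed in marking. Each is the 250 bases before the TSS on the gene's own strand, from the RefSeq GRCm38 genome, with CG dinucleotides, the sites of DNA methylation, in capitals. The Ezh1 stretch is chr11:101226464-101226713 and held 14 CG with a G+C content of 55.2%, and the Ezh2 stretch is chr6:47595342-47595591 and held 21 CG with 65.2%.
Ezh1: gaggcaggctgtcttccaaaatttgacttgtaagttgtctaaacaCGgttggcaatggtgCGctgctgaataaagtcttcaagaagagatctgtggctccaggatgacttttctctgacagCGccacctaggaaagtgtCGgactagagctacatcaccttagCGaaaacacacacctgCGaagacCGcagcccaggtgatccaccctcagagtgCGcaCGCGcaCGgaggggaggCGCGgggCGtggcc
Ezh2: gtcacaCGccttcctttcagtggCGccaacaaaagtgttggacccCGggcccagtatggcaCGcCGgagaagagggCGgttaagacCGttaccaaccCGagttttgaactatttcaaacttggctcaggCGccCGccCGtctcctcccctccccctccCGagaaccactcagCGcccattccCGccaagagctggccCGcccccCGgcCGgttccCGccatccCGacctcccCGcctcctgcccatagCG

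The stretch near the start of Ezh2 that carried both marks in Ebf2-EGFP- cells was intronic, at chr6:47594333-47594523 on the minus strand. It is the H3K27ac peak of that list, and all but 1 of its 191 bases also belonged to the H3K27me3 peak. It held 21 CG, in capitals, and the E11.5 and E15.5 H3K27ac peaks of Ebf2-EGFP+ cells covered it as well.
Ezh2 intron: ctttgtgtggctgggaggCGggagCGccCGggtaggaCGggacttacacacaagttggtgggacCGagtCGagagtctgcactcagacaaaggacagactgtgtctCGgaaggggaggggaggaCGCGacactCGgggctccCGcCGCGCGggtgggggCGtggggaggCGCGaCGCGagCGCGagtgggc

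Eed, whose protein binds H3K27me3 and stimulates the complex, and Suz12, the scaffold of PRC2, followed the common pattern of H3K27ac. At Eed (chr7:89954654-89980983, minus strand) the Ebf2-EGFP+ cells had 1 H3K27ac peak per stage, 612 bp wide at E11.5, 331 bp at E13.5 and 1125 bp at E15.5. The peaks of the 3 stages overlapped each other at its first exon. No H3K27me3 peak lay within 5 kb of the Eed TSS in any list, and the nearest in Ebf2-EGFP- cells was 39.8 kb downstream.

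At Suz12 (chr11:79993106-80034123, plus strand) the H3K27ac peak of E11.5 Ebf2-EGFP+ cells was 216 bp wide and lay 399 to 614 bp after the TSS. At E13.5 there were peaks of 224 bp, just before the TSS, and of 126 bp at the edge of the 5 kb window, and at E15.5 a single peak of 1186 bp ran across the TSS. The E11.5 and E13.5 peaks lay on opposite sides of the TSS and the E15.5 peak covered the whole of the first and part of the second. The H3K27me3 peak of Ebf2-EGFP- cells was 130 bp wide, at -320 to -191 bp from the TSS, the narrowest among the 10 genes, and it overlapped the H3K27ac peaks of E13.5 and E15.5 cells.

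The 250 bases before the Suz12 TSS (chr11:79992856-79993105) are shown because peaks of 3 lists overlapped them. H3K27ac at E13.5 and H3K27me3 in Ebf2-EGFP- cells ended in them, and H3K27ac at E15.5 covered them whole. Capitals again mark CG, of which there were 37.
Suz12: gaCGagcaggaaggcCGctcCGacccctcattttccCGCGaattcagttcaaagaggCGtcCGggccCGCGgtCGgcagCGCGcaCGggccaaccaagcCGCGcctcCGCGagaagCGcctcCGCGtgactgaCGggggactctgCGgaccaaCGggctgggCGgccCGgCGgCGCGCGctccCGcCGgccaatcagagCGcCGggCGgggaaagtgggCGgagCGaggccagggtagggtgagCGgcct

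Jarid2 (chr13:44729474-44921643, plus strand) encodes a DNA-binding cofactor that helps to bring PRC2 to its targets. In Ebf2-EGFP+ cells its H3K27ac peak nearest to the TSS was 697 bp at E11.5, 176 bp at E13.5 and 1487 bp at E15.5. A second peak 3.9 kb into the gene was present at overlapping positions at E11.5 (214 bp) and E13.5 (231 bp). This second peak was the wider one at E13.5 and was not called at E15.5. H3K27me3 of Ebf2-EGFP- cells covered 256 bp, at 350 to 605 bp after the TSS, inside the first H3K27ac interval of E11.5 Ebf2-EGFP+ cells.

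Rnf2 (chr1:151458004-151500955, minus strand) encodes RING1B, the ubiquitin ligase of PRC1. Taking the widest H3K27ac peak near each TSS, Rnf2 had the lowest value of the marked genes at E13.5 and E15.5. Its peaks measured 299 bp at E11.5, 145 and 136 bp at E13.5 and 700 bp at E15.5, all between 97 and 796 bp after the TSS. Like Eed, Rnf2 had no H3K27me3 peak within 5 kb of its TSS in any list, and the nearest were 70.5 kb away in Ebf2-EGFP- cells and 44.7 kb away in E11.5 Ebf2-EGFP+ cells.

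The demethylase genes differed in how much of the 5 kb window was acetylated. Kdm6a (chrX:18162575-18279936, plus strand), which also belongs to the MLL3/4 methyltransferase complexes, had in Ebf2-EGFP+ cells 1 H3K27ac peak of 761 bp at E11.5 and 1 of 332 bp at E13.5. By E15.5 there were peaks of 626 bp before the TSS and 1122 bp after it. H3K27me3 of Ebf2-EGFP- cells was a single peak of 171 bp, which overlapped the H3K27ac peak of each Ebf2-EGFP+ list.

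Kdm6b (chr11:69398508-69413675, minus strand), often an inducible gene, held 15 of the 51 H3K27ac peaks found near the TSS of the 10 genes. All came from Ebf2-EGFP+ cells, 6 of E11.5, 4 of E13.5 and 5 of E15.5, and they lay on both sides of the TSS at E11.5 and E15.5. At E15.5 a single peak of 3463 bp ran from 1455 to 4917 bp after the TSS, the widest TSS peak of any member in any list, over ground that held 3 and 4 separate peaks at E11.5 and E13.5. The TSS of Kdm6b itself was in no peak, and the nearest H3K27ac peak was 1454 bp away at E11.5, 1522 bp at E13.5 and 379 bp at E15.5. A window of 1 kb therefore left Kdm6b unmarked at E11.5 and E13.5. H3K27me3 of Ebf2-EGFP- cells formed peaks of 291 and 199 bp at 2539 and 4182 bp after the TSS, both overlapping H3K27ac of E13.5 and E15.5 cells, and the H3K27ac list of the Ebf2-EGFP- cells had no peak there.

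Crebbp and Ep300, the paralogous acetyltransferase genes, were marked by H3K27ac in all 4 H3K27ac lists, as Ezh2 was. At Ep300 (chr15:81585351-81652077, plus strand) the peak near the TSS was 479 bp in Ebf2-EGFP- cells and 987, 851 and 1382 bp in the lists of Ebf2-EGFP+ cells by rising age. All 4 started between 42 and 139 bp after the TSS. The 294-bp H3K27me3 peak of Ebf2-EGFP- cells, at 521 to 814 bp, overlapped each of them.

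At Crebbp (chr16:4081328-4213997, minus strand) Ebf2-EGFP- cells had H3K27ac peaks of 157 and 390 bp after the TSS. The widest one in the Ebf2-EGFP+ lists measured 1028 bp (E11.5), 634 bp (E13.5) and 1708 bp (E15.5). H3K27me3 of the Ebf2-EGFP- cells formed peaks of 351 bp before the TSS and 279 bp after it. The latter overlapped all 4 H3K27ac lists at the first exon.

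Crebbp also had the only H3K27me3 peak of the 10 genes near a TSS in Ebf2-EGFP+ cells. It was called at E13.5, was 289 bp wide, lay 581 to 869 bp after the TSS (chr16:4213128-4213416) and overlapped the H3K27ac peak of the same cells and of the other 3 H3K27ac lists. The bases of it that lie after the untranslated part of exon 1 are shown (chr16:4213128-4213223, minus strand), because both marks were called there in the same Ebf2-EGFP+ cells. Of the 96 bases 85 are coding, and capitals mark 8 CG.
Crebbp exon 1 end: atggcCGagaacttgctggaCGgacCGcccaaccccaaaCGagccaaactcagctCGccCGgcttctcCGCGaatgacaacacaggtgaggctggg

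Peak width near the TSS differed from list to list. Among marked members the widest H3K27ac peak ranged from 216 to 1187 bp (median 697 bp) at E11.5 in Ebf2-EGFP+ cells, against a median of 342 bp over all marked protein-coding genes. At E13.5 it ranged from 145 to 851 bp (median 331.5 bp, all genes 255 bp), and at E15.5 from 700 to 3463 bp (median 1382 bp, all genes 582 bp). Each of the 9 genes marked at all 3 stages had its widest peak at E15.5, and the median over all genes was highest at that stage too. In Ebf2-EGFP- cells the H3K27ac peaks of Ezh2, Crebbp and Ep300 ranged from 191 to 479 bp (median 390 bp, all genes 232 bp), and the H3K27me3 peaks of the 8 marked genes from 130 to 446 bp (median 273.5 bp, all genes 247 bp).

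**Figure D3:**
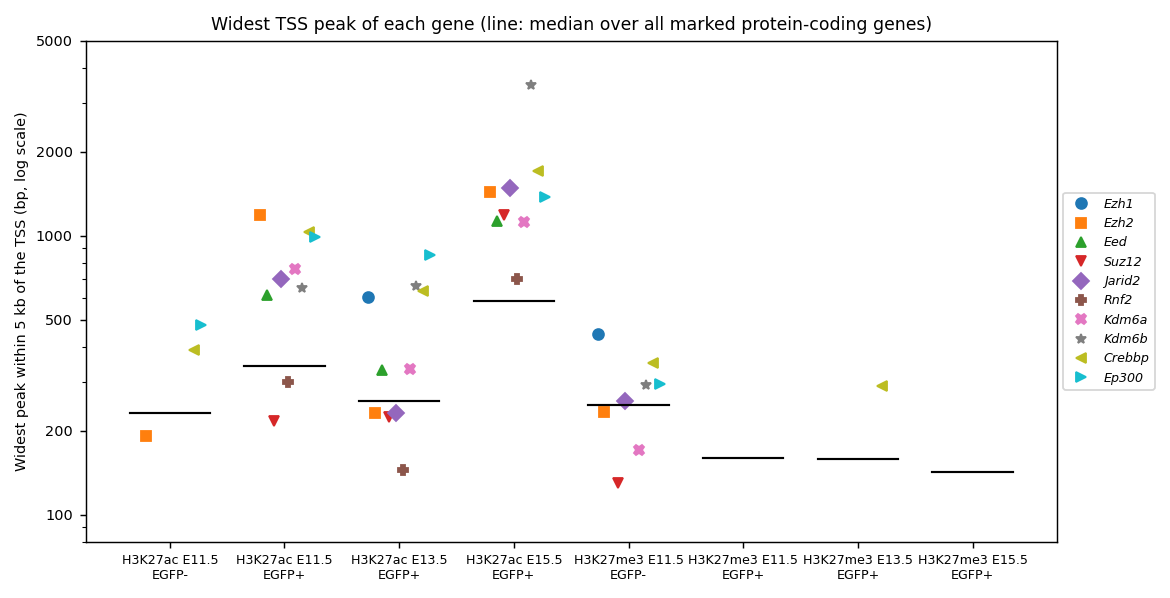
Width in bp (log scale) of the widest peak within 5 kb of the TSS, 1 symbol for each marked gene and 1 column for each list, with a line at the median over all marked protein-coding genes. At E15.5 all 9 H3K27ac symbols lay above the line of 582 bp, from 700 bp for Rnf2 to 3463 bp for Kdm6b.

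The H3K27me3 peaks of Ebf2-EGFP- cells near the 10 start sites lay mostly on ground that carried H3K27ac in the Ebf2-EGFP+ lists. There were 11 such peaks, and 10 of them (90.9%) overlapped an H3K27ac peak of E15.5 cells, 8 (72.7%) one of E13.5 cells and 6 (54.5%) one of E11.5 Ebf2-EGFP+ cells. Over the 13538 H3K27me3 peaks near any protein-coding TSS in the same list the shares were 48.2%, 46% and 43%. With the H3K27ac list of the Ebf2-EGFP- cells themselves 3 of 11 (27.3%) overlapped, against 4.36%. Of the 11, 1 (9.09%) overlapped H3K27me3 of E13.5 Ebf2-EGFP+ cells, at Crebbp, against 5.25% over all genes, and 0 of 11 overlapped H3K27me3 at E11.5 or E15.5 (1.83% and 0.849% over all genes). The one peak with no E15.5 H3K27ac was that of Ezh1. The 11 peaks came from 8 genes, so they are not independent observations. Counted by gene, 7, 8 and 7 of these 8 had H3K27ac near the TSS in Ebf2-EGFP+ cells by rising age. Of all genes with H3K27me3 near the TSS in Ebf2-EGFP- cells, 72.3%, 82.2% and 73% had it. The gap was smaller than by peaks at E13.5 and E15.5, but not at E11.5.

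By their 8 calls near the TSS the 10 genes fell into 5 patterns, of 130 seen among protein-coding genes. Suz12, Jarid2, Kdm6a and Kdm6b shared one with 3786 genes (17.3%), H3K27ac in the 3 Ebf2-EGFP+ lists and H3K27me3 in Ebf2-EGFP- cells. Eed and Rnf2 had the 3 H3K27ac calls alone, with 1377 genes (6.28%), and Ezh2 and Ep300 had all 4 H3K27ac calls and the Ebf2-EGFP- H3K27me3 call, with 499 genes (2.27%). The Ezh1 pattern of 1 call for each mark was found in 869 genes (3.96%), and that of Crebbp, with 6 lists marked, in 87 genes (0.397%).

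Beyond 5 kb from the TSS, 5 of the 10 genes had a peak in the gene in at least 1 list: Ezh1, Jarid2, Kdm6b, Crebbp and Ep300. The other 5, Ezh2, Eed, Suz12, Rnf2 and Kdm6a, had none in any list, although Kdm6a had 112 kb and Ezh2 60.2 kb of gene beyond the window. In Ebf2-EGFP+ cells H3K27ac lay in the bodies of 5 of 10 genes at E11.5 (36.9% of protein-coding genes longer than 5 kb), 5 of 10 at E13.5 (58.6%) and 4 of 10 at E15.5 (27.2%). In Ebf2-EGFP- cells it lay in 0 of 10 (1.71%). H3K27me3 lay in 4 of 10 in Ebf2-EGFP- cells (43.1%), and in Ebf2-EGFP+ cells in 1 of 10 at E11.5, Ep300 (14%), 2 of 10 at E13.5, Crebbp and Ep300 (12.8%), and 1 of 10 at E15.5, Crebbp (2.89%).

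Since long genes hold more peaks, body peaks were also counted for each 100 kb of gene. For H3K27ac the 10 genes had 1.61, 2.34 and 0.73 peaks for each 100 kb in the 3 lists of Ebf2-EGFP+ cells by rising age, against 1.62, 4.9 and 0.889 over all genes. For H3K27me3 in Ebf2-EGFP- cells it was 1.31 against 2.2. In these 4 lists the members' body density was at or below that of all genes, whereas their TSS counts were above the share of all genes. The other 4 lists held 0, 1, 2 and 1 body peaks of the members, and H3K27me3 of E15.5 cells, with 0.146 against 0.0692, went the other way on a single peak.

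Of the 45 body peaks 32 (71.1%) had their centre in an annotated exon, although exons made up 10.4% of the body bases of the 10 genes. Over all protein-coding genes 26% of body peaks were centred in exons, which made up 7.63% of body bases. The 45 peaks came from 5 genes and several lay at the same exon, so they are not independent observations. The exonic share was 21 of 32 for H3K27ac and 11 of 13 for H3K27me3.

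**Figure D4:**
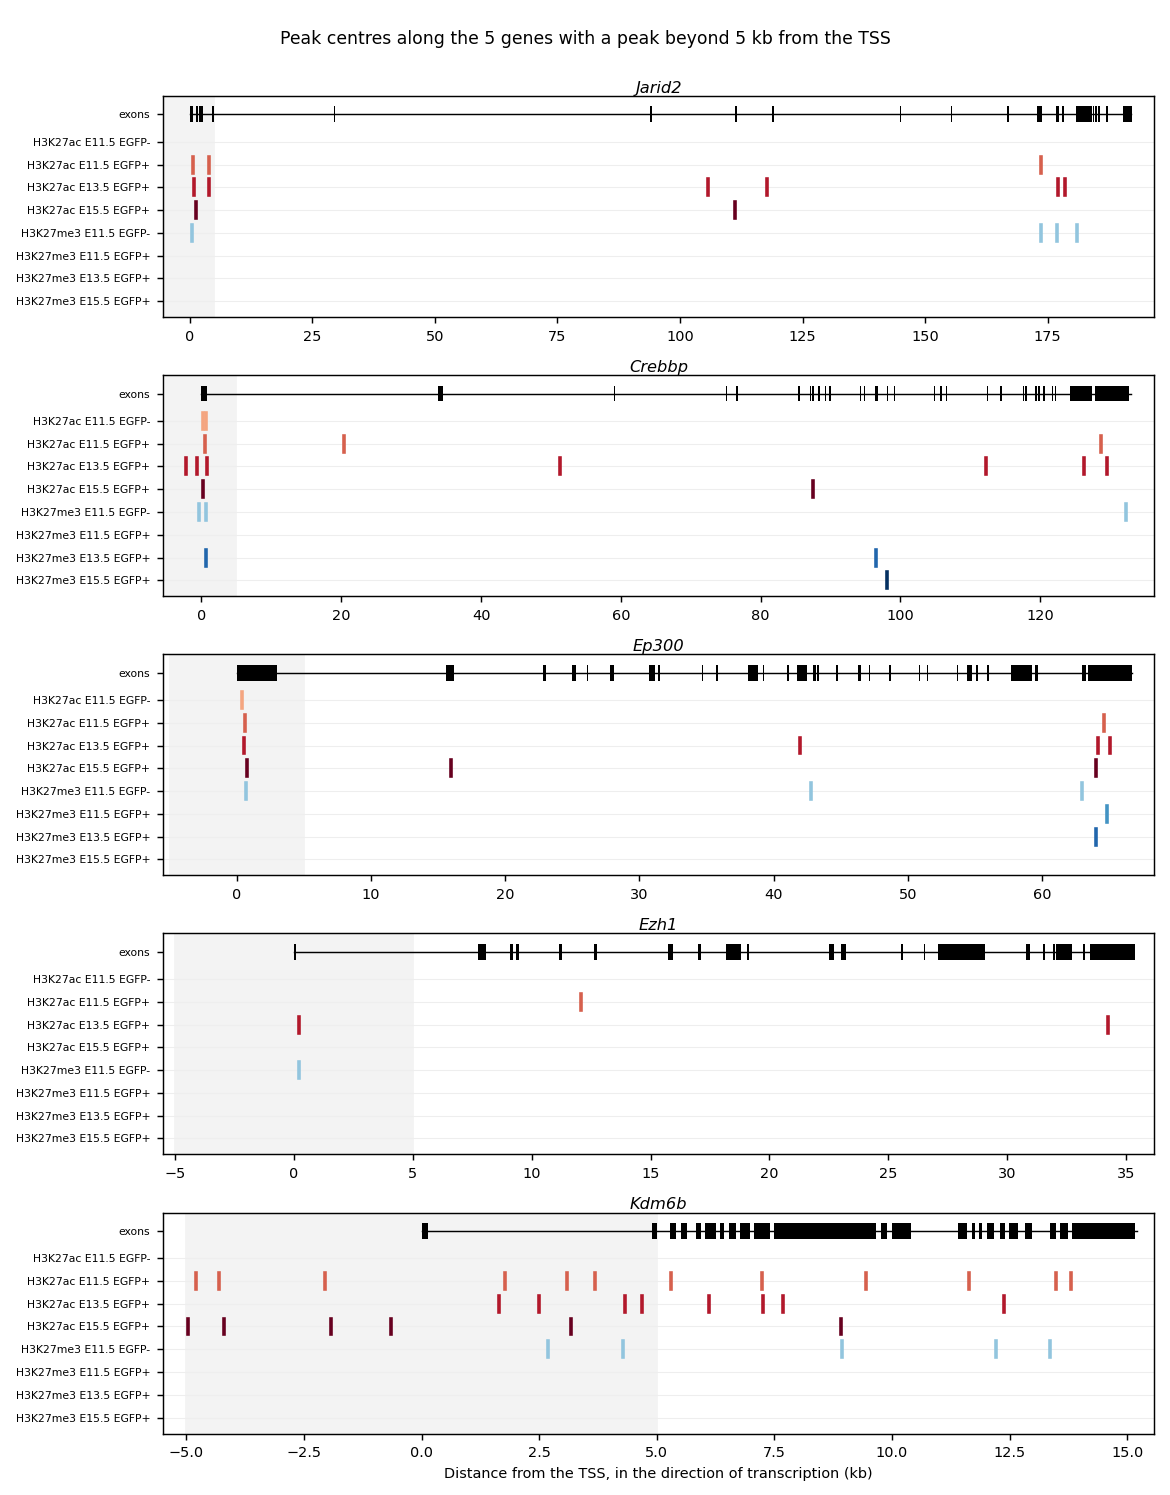
Positions of peak centres, as vertical ticks, along the 5 genes with a peak beyond 5 kb from the TSS, by distance from the TSS in kb, with exons of all annotated transcripts as black boxes above and 1 row for each list. The grey band is the window within 5 kb of the TSS, and ticks of 6 lists gathered over the last exons of Ep300.

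Ep300 had peaks of both marks at its 3′ end. In the last 5 kb of the gene there were 7 peaks, all centred in exons, from 6 of the 8 lists. The H3K27ac peaks there were those of Ebf2-EGFP+ cells, 166 bp wide at E11.5, 535 and 177 bp at E13.5, and 205 bp at E15.5. The H3K27me3 peaks were 140 bp wide in Ebf2-EGFP- cells and, in Ebf2-EGFP+ cells, 130 bp at E11.5 with 181 bp at E13.5. The 181-bp H3K27me3 peak overlapped the E13.5 and E15.5 H3K27ac peaks, so at E13.5 both marks were called on the same bases, and with any annotated transcript start as a TSS it counted as a second member with H3K27me3 at E13.5.

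The stretches of Ep300 under the H3K27me3 peaks of Ebf2-EGFP+ cells are shown because they lie in coding sequence and not at a CG-rich start. That of E13.5 is chr15:81649308-81649488 and that of E11.5 is chr15:81650114-81650243, both on the plus strand and coding throughout. Capitals mark CG, of which the E13.5 stretch held 0 and the E11.5 stretch 1.
Ep300 E13.5: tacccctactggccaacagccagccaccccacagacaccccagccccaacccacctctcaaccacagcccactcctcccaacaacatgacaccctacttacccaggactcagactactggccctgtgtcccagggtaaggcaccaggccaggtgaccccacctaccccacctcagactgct
Ep300 E11.5: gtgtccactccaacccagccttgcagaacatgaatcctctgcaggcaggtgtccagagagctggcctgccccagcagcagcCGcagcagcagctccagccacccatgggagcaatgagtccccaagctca

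Crebbp had 7 body peaks of H3K27ac, all in Ebf2-EGFP+ cells (2 of E11.5, 4 of E13.5 and 1 of E15.5), none of which overlapped a peak of another list. Its H3K27me3 body peaks were 1 of 130 bp in the last exon in Ebf2-EGFP- cells, 1 of 175 bp at E13.5 and 1 of 162 bp at E15.5. The E13.5 peak lay in an exon, 96483 bp from the TSS. The E15.5 peak began 97999 bp from the TSS and was centred in an exon, with 121 of its 162 bases coding. These peaks shared no bases. They are shown, with CG in capitals, as the remaining H3K27me3 peaks of a member in Ebf2-EGFP+ cells: chr16:4117340-4117514 for E13.5, with 2 CG, and chr16:4115837-4115998 for E15.5, with 1, both on the minus strand.
Crebbp E13.5: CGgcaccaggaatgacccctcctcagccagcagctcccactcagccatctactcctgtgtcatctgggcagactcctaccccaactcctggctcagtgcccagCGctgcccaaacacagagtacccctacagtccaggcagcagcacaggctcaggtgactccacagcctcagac
Crebbp E15.5: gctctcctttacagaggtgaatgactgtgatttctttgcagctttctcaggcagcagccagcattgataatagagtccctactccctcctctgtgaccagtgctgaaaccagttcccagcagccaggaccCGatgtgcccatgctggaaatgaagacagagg

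Jarid2 had 6 H3K27ac body peaks in Ebf2-EGFP+ cells, 1 of E11.5, 4 of E13.5 and 1 of E15.5, and 3 H3K27me3 peaks in Ebf2-EGFP- cells. They lay 105.6 to 181.2 kb from the TSS. The H3K27me3 peaks 173.5 and 176.8 kb from the TSS each overlapped an H3K27ac peak of Ebf2-EGFP+ cells, at E11.5 and E13.5 respectively, in an exon.

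Kdm6b, with only 10.2 kb of gene beyond the window, had 11 H3K27ac body peaks, the most of any member. There were 6 of E11.5, 4 of E13.5 and 1 of E15.5, and the sole overlap between stages was at 7.2 kb from the TSS in E11.5 and E13.5 cells. Each of its 3 H3K27me3 body peaks in Ebf2-EGFP- cells overlapped an H3K27ac peak of 1 of the Ebf2-EGFP+ lists. Ezh1 had 1 body peak of H3K27ac at E11.5, given above, and 1 of 136 bp at E13.5, in an exon 34.2 kb from the TSS.

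The start sites of the members were rich in CG. RefSeq promoter windows of GRCm38.p6, from 250 bases before to 50 after each start, matched 9 of the 10 genes (Kdm6b had no match). They held 17 (Eed) to 49 (Crebbp) CG dinucleotides with a median of 30, against a median of 7 over 32851 promoter windows, and 31.4% of all windows held at least 17. Their G+C content was 54.7% to 82.0%, against a median of 52.7%. For Ezh2, Crebbp, Ep300 and Jarid2 the RefSeq start lay 311, 593, 863 and 1300 bp after the TSS used here.

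Short motifs were counted on both strands of the 9 windows as a description. The letters GGGCGG, a GC box, were in 6 of 9 windows (35.7% of all windows) and CCAAT in 4 of 9 (37.4%). TATAAA was in 0 of 9 (13.6%). TTTCCCGC was in the window of Suz12 alone (1.07%) and TTTGGCGC in that of Ezh2 alone (0.514%), both of the form that E2F factors bind, and CCCNNGGG, the core letters of Ebf sites, in that of Eed alone (13.7%). No motif contained another.

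Among 56 related genes, listed by complex, H3K27ac near the TSS was found in 42, 41 and 46 by rising age in Ebf2-EGFP+ cells. That was 75%, 73.2% and 82.1%, against 49.9%, 60.9% and 52.3% of all protein-coding genes. In Ebf2-EGFP- cells H3K27ac was found in 4 (7.14%, against 4.17%). At all 3 stages of Ebf2-EGFP+ cells it was found in 33 of 56, against 33.1% of all genes. H3K27me3 was found in 38 in Ebf2-EGFP- cells (67.9%, against 48.2%). In the 3 Ebf2-EGFP+ lists it was found in 2, 9 and 0 (3.57%, 16.1% and 0%, against 4.92%, 9.31% and 1.06%). Of 21 other PRC1 genes 17, 17 and 18 had H3K27ac in the Ebf2-EGFP+ lists, and of 7 PRC2 partners 5, 4 and 6. Of the 4 genes of the PR-DUB deubiquitinase (Bap1 and Asxl1 to Asxl3) 4, 3 and 4 had it, Asxl1 lacking it at E13.5. Of 9 partners of Kdm6a in the MLL3/4 complexes 7, 6 and 7 had it, and of 7 other acetyltransferase genes 4, 6 and 6. Of 4 class 1 deacetylase genes 3, 3 and 3 had it, and of 4 BET reader genes 2, 2 and 2. The BET readers (50% at each stage) and the PRC2 partners at E13.5 (57.1%) lay near or below the share of all genes. The other sets lay above it at each stage, as did the PRC2 partners at E11.5 and E15.5.

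H3K27me3 at E13.5 in Ebf2-EGFP+ cells lay near the TSS of 9 of these 56 genes, Aebp2, Bmi1, Cbx6, Cbx8, Phc1, Kmt2d, Kat2a, Kat6a and Brd2. Of these, 4 encode PRC1 subunits: Bmi1, the chromodomain genes Cbx6 and Cbx8, and Phc1. That was 19% of the 21 PRC1 genes listed, near the 16.1% of all 56. At E11.5 H3K27me3 lay at Phc3 and Kmt2d. In H3K27ac of Ebf2-EGFP- cells the marked genes were Mtf2, Scmh1, Ncoa6 and Kat6a. Phf19, Scml2, Kat6b, Hdac8 and Brd3 had no H3K27ac near the TSS in any of the 4 lists. In all, 25 of the 56 had the same 8 calls as a member. Of them, 4 (Pcgf3, Pcgf5, Bap1 and Asxl3) had the pattern of Eed and Rnf2, which 6.28% of all genes had. The Ezh1 pattern, in 3.96% of all genes, was that of 1 (Bcor). The other 20 had that of Suz12, found in 17.3% of all genes: Rbbp4, Rbbp7, Epop, Ring1, Pcgf1, Pcgf2, Pcgf6, Cbx2, Rybp, Yaf2, Kdm2b, Asxl2, Kmt2c, Paxip1, Pagr1a, Kat2b, Kat5, Hdac1, Hdac2 and Hdac3.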

How the data were processed

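The authors sequenced H3K27ac (antibody Ab4729) and H3K27me3 (Ab6002) ChIP and input libraries of FACS-sorted cells. Per the study's methods and processing notes, reads were aligned to mm10 with Bowtie 1.1.2 on Galaxy and peaks were called with MACS. How replicates and input entered the calls, and the MACS version, are not given in the sources used here. The deposited lists give chromosome, start, end, and a score that is 0 for every peak, so the authors' files hold no height, and read depth is unknown.

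Starts were read as 0-based and are printed 1-based. All peak ends fell within the 21 GRCm38 chromosomes. Genes were the 21938 protein-coding genes of GENCODE M21, and the TSS was the 5′ end of the gene. A gene was marked with at least 1 bp of a peak within 5 kb of the TSS, and a body peak lay in the gene beyond that (17795 genes were long enough). Counts were set beside the share of all genes. No test was possible with 1 list for each group. Sequences came from RefSeq GRCm38.p6. The overlap code was tested on simulated peaks (Python 3.11.15, numpy 2.4.6).

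The 10 genes and all gene lists were chosen with earlier results of these data known. Named were all 10 genes and, of 56 related genes, those without H3K27ac, with H3K27me3 in an Ebf2-EGFP+ list, or with a member's 8 calls. The 4 related genes marked in the H3K27ac list of E11.5 Ebf2-EGFP- cells were named after their values were seen. A related gene that is withheld is not reported here.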

Additional observations from a re-analysis of the deposited data

How the results depend on the processing

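Of 118 values under other settings 80 stayed within 1.5 times the counts given, and 38 moved. The 80 include counts of 0 that could not move under settings that only remove peaks or narrow the window. Likewise, leaving out a list can only keep or raise the count of genes marked at every stage. None moved with a 1 kb window, with the peak centre as the criterion or, a choice made after seeing the data, with the E13.5 list left out, which kept 9 genes with H3K27ac at every remaining stage. Using any annotated transcript start raised E13.5 H3K27me3 from 1 to 2 genes, as well as both marks and overlapping marks at E13.5 to 2. Counting the whole gene in place of the body gave H3K27ac in 3, 10, 9 and 9 genes (Ebf2-EGFP- cells, then Ebf2-EGFP+ cells by rising age) and H3K27me3 in 7 in Ebf2-EGFP- cells. A reciprocal overlap of 50% left 0 genes with overlapping marks at E13.5.

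Peak width mattered most. Keeping peaks of at least 300 bp left TSS H3K27ac at 6 genes at E13.5, TSS H3K27me3 at 2 in Ebf2-EGFP- cells and 0 at E13.5, H3K27ac at every stage at 5, both marks at 1 in Ebf2-EGFP- cells and 0 at E13.5, and overlapping marks at 0 in both. Gene bodies then held H3K27ac in 1, 2 and 1 genes by rising age and H3K27me3 in 0 in each of the 4 lists. Keeping the widest 1386 H3K27ac and 1438 H3K27me3 peaks of each list left TSS H3K27ac at 4 and 1 genes at E11.5 and E13.5 in Ebf2-EGFP+ cells, at every stage at 1, TSS H3K27me3 at 0 in Ebf2-EGFP- cells, and both and overlapping marks at 0 in E11.5 Ebf2-EGFP- and E13.5 cells. Body H3K27ac was then in 0 genes at each stage, as was body H3K27me3 in Ebf2-EGFP- cells and at E11.5 and E13.5 in Ebf2-EGFP+ cells. These settings keep fewer peaks by construction.

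Replicates could not be left out in turn because each group had 1 list. No paired analysis was possible because no result came from a test. Peaks without heights limit every count to presence or absence, and a missing peak does not show a missing mark.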
